A study of Mus musculus with 384 samples.

Results

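Lysosomes break down proteins with cathepsins and are kept acid by a proton pump, and the genes for both are described here in mouse macrophages given innate immune ligands. Cathepsins are cysteine, aspartic or serine proteases, most of which are made as inactive precursors that mature in the acid lysosome. The pump, the vacuolar ATPase, has a cytosolic V1 part that splits ATP and a membrane V0 part that carries protons. In macrophages both serve the digestion of engulfed material and the processing of antigen. The genes were taken by symbol: every row of the count table named as a cathepsin (Cts and a letter), as a V1 or V0 subunit (Atp6v1, Atp6v0) or as a pump accessory protein (Atp6ap). This gave 44 of 23481 genes, 18 cathepsins and 26 pump genes, and all 44 were found by symbol in the GENCODE annotation of mm10.

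The cells were bone-marrow-derived macrophages (BMDM) from male C57BL/6 mice aged 13 weeks, either wild type (WT) or with Myd88 knocked out (KO). Myd88 is the adaptor through which most Toll-like receptors signal. All cells of both genotypes had been transduced with a pool of pathway reporter viruses and replated in 96-well plates. Each well received 1 of 12 ligands, given here as the labels spell them (Pam3Cys, R848, CpG, FLA, LPS, MDP/LPS, Zymosan, Poly(I:C), SeV, TDB, MDP, HT-DNA), and was lysed at 0, 0.5, 1, 1.5, 2, 2.5, 3 or 4 h. There were 2 replicates of each genotype, numbered 1 and 2 in the sample titles, and each is read here as a plate. Each ligand and time had a single well on a plate, giving 384 wells. Nothing in the labels ties a plate to its own mouse or culture. The p-values therefore measure the spread between plates, which may be technical, and genotype and plate cannot be told apart. In bulk wells, fewer cells of a type and less RNA per cell cannot be told apart either. Myd88 itself was at 30.40 and 35.04 CPM (its counts over the well or plate total, the usual CPM scale) at time 0 in WT and at 14.49 and 17.01 in KO. The deleted stretch of Myd88 is not given, and a 3′ tag outside it checks nothing.

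Wells held 71720 to 767167 counts, with a median of 342561. Levels are CPM from 3′ digital counting, which is not scaled by gene length, so levels of different genes are listed and not compared. For tests the wells of a plate were added up by time: time 0 (12 wells, all ligand labels), early for wells at 0.5 and 1 h, middle for those at 1.5 and 2 h, and late for the 2.5, 3 and 4 h wells. No well without a ligand label was lysed after 0 h, so a change from time 0 holds both ligand and time in the well. Each log2 change comes with its standard error (SE). The sums of macrophage marker genes at time 0 were 3728 to 4146 CPM over the 4 plates, with counts for 9 of 9 markers. T and NK cell markers stood at 0 in all 4 plates, and neutrophil and promyelocyte markers summed to 137.9 to 215.9 CPM. Over the 4 plates, B cell markers summed to 3.060 to 3.473 CPM, mast cell markers to 3.409 to 9.900, dendritic cell markers to 9.155 to 14.49 and osteoclast markers to 30.89 to 56.51. The share of counts in Rn45s, the ribosomal RNA precursor, exceeded 12% in 73 wells: 5 of WT replicate 1, 19 of WT replicate 2, 25 of KO replicate 1 and 24 of KO replicate 2.

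Many lysosomal genes carry in their promoters the sequence TCACGTGA, an E-box known to be bound by TFEB and its relatives (the MiT/TFE factors). It reads the same on both strands, and its centre, CACGTG, is the shorter E-box. RefSeq promoters (GRCm38.p6), from 250 bases before to 50 after the start, were listed for 32 of the 44 genes, and 5 of them (15.6%) held TCACGTGA in at least 1 listed promoter, against 1.12% of all 27025 genes and 0.974% of all 32851 promoters. A gene with several listed promoters, such as Ctsa, has more than 1 chance of a match. Of the 20 listed genes with a mean of at least 1 CPM, 5 (25.0%) held it: Ctsa, Ctsd, Atp6v0d1, Atp6v0e and Atp6v1a. CACGTG stood in 8 of the 32 genes (25.0%) and in 8.09% of all genes. Promoters of 4 of the 5 are shown because they carry the shared element in genes of both the protease and the pump group, and that of Ctsc because Ctsc rose late and lacks it. The element is in capitals.
Ctsa (chr2:164833523-164833822, plus strand): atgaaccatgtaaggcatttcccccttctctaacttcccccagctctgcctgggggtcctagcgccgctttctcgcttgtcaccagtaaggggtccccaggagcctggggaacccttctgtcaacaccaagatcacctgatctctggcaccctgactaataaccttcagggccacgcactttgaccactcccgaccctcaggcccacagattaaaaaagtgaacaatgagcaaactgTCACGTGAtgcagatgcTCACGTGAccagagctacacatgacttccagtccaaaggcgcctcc
Ctsd (chr7:142387778-142388077, minus strand): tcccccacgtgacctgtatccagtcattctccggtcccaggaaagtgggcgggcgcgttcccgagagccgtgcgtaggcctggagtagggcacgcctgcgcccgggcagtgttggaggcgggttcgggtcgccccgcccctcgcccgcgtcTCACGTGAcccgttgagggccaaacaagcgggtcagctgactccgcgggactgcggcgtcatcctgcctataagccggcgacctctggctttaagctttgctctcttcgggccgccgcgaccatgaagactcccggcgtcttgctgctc
Atp6v0d1 (chr8:105566015-105566314, minus strand): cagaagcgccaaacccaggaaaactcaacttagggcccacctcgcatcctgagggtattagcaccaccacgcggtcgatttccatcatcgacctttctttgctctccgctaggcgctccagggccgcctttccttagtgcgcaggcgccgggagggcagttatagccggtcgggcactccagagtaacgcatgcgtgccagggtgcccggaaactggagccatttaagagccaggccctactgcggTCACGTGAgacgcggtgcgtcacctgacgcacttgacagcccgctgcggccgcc
Atp6v1a (chr16:44139210-44139509, minus strand): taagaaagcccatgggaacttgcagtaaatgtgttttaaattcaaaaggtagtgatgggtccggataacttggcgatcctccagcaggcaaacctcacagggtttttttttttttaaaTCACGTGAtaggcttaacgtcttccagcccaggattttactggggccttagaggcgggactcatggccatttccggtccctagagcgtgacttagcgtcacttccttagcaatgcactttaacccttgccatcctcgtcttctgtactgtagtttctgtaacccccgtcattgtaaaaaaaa
Ctsc (chr7:88277835-88278134, plus strand): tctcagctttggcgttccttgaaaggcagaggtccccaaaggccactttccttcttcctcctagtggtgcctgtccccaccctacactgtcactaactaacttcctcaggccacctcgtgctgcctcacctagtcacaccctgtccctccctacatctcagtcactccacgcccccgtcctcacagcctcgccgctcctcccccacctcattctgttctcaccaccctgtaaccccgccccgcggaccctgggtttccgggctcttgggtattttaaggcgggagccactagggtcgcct
The Ctsa window holds 2 copies in a row. A match describes letters in a window, and the absence of one says nothing about the factor.

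In resting macrophages a few genes held most of the counts of each group. In time 0 wells the cathepsins summed to 12920 and 13091 CPM in WT and to 15266 and 14906 in KO, and the pump genes to 6288 and 5690 in WT and 6818 and 7289 in KO. Ctsb, a cysteine protease, made up 41.9% of the cathepsin sum in WT and 44.8% in KO. Its level was 5437 and 5460 CPM in WT and 6773 and 6745 in KO. The aspartic protease Ctsd stood at 2611 and 2603 CPM in WT and at 3893 and 3262 in KO, with the KO plates above the WT plates. The cysteine protease Ctss, which trims the class II invariant chain, stood at 2684 and 2884 CPM in WT and at 2357 and 2638 in KO, with the KO plates below. Ctsl was at 778.4 and 815.7 CPM in WT and 777.7 and 850.1 in KO, Ctsa, the serine carboxypeptidase, at 728.8 and 700.8 and at 822.2 and 734.4, and Ctsz at 356.0 and 322.0 and at 381.0 and 369.6. Ctsl overlapped between genotypes.

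Among pump genes, Atp6v1a, the V1 subunit that holds the catalytic site, took 53.2% of the pump sum in WT and 53.0% in KO. Its level was 3482 and 2898 CPM in WT and 3511 and 3971 in KO. Atp6v0c, the proton-carrying ring subunit, stood at 393.2 and 399.7 CPM in WT and at 491.1 and 467.3 in KO. Atp6v0c-ps2, annotated as a processed pseudogene of it, stood at 398.3 and 401.6 CPM in WT and at 512.9 and 485.9 in KO. Over all wells the gene had 60362 counts and the pseudogene 62493, with a Pearson r of 0.937 between their CPM over the 384 wells, which share libraries and depth. Their ratio varied less between wells than independent counting gives (chi-square per degree of freedom 0.745), so reads of the gene and the pseudogene cannot be told apart, and the pair is 1 observation. Atp6v1d was at 227.1 and 218.5 CPM in WT and 251.2 and 267.8 in KO, and Atp6v1c1 at 215.9 and 207.7 and at 231.6 and 270.8. Atp6v0e was at 152.8 and 186.3 CPM in WT and 219.5 and 212.2 in KO.

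The genes that mark other cells were near or at 0, with 1 exception. Ctsg, of promyelocytes, had counts in 1 well of 384, and Ctsw, of NK and T cells, had 3 counts in all. Ctsk, of osteoclasts, was at 3.264 and 1.894 CPM in WT and at 3.835 and 0.2538 in KO. Ctse was at 0.4081 and 0 CPM in WT and at 2.983 and 2.031 in KO. Atp6v0d2, the V0 d isoform of osteoclasts and some macrophages, was at 141.2 and 110.5 CPM in WT and at 81.39 and 155.6 in KO, so its plates overlapped. In all, 9 genes had no count in any well: Atp6ap1l, Atp6v0a4, Atp6v1b1, Atp6v1e2, Atp6v1g3, Ctsj, Ctsm, Ctsq and Ctsr. With Atp6v0e2, Atp6v1c2, Atp6v1g2, Ctsg and Ctsw, 14 genes had a mean below 1 CPM, and 30 were left, the same 30 that passed the filter on low counts.

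Between genotypes at time 0, 0 of the 30 tested genes passed the threshold (edgeR quasi-likelihood test, Benjamini-Hochberg adjusted p under 0.05 over 10562 genes), against 0.312% of all genes. At an unadjusted p under 0.05 there was 1, Ctsd, and DESeq2 called 0. Ctsd differed by 0.43 on the log2 scale, KO above WT (SE 0.19, edgeR adjusted p 1.00). The median difference of the 30 was 0.20, and that of all genes 0.02. By role the median was -0.07 for 9 cysteine cathepsins, 0.20 for 8 V1 subunits and 0.26 for 7 V0 subunits. With the plate as a block the count was also 0.

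**Figure D1:**
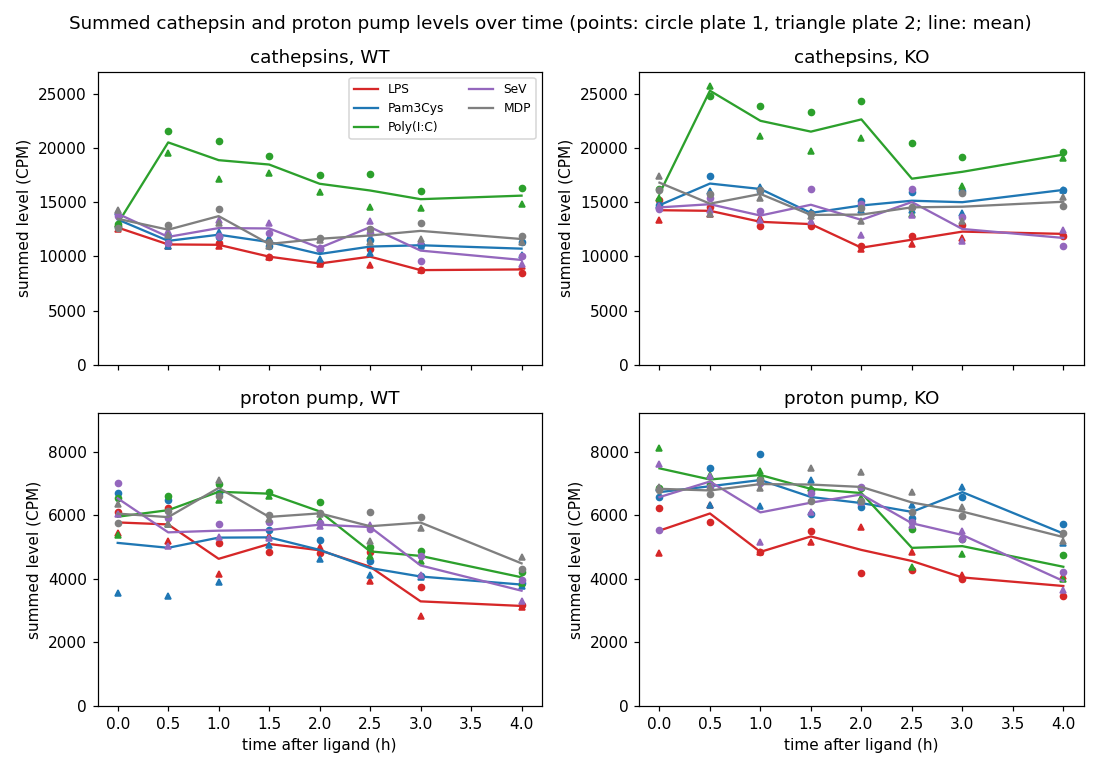
Summed level in CPM (vertical axes) of the cathepsins (top) and the pump genes (bottom) against time after ligand in h, in WT (left) and KO (right), for 5 of the 12 ligands. Circles and triangles are the wells of plates 1 and 2 and lines their means; at 0.5 h the Poly(I:C) cathepsin wells stand at 19479 and 21518 CPM in WT and at 24815 and 25715 in KO, above the other ligands drawn.

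Poly(I:C), synthetic double-stranded RNA, was followed by higher cathepsin levels within 0.5 h in both genotypes. In WT the cathepsin sum was 13021 and 13020 CPM in the time 0 wells with the Poly(I:C) label and 21518 and 19479 at 0.5 h. In KO it went from 16163 and 15382 to 24815 and 25715. In early wells the sum was 164% and 140% of time 0 in WT and 160% and 157% in KO. With the other 11 ligands it was 82.4% to 105% in WT and 84.1% to 109% in KO. The whole pump sum stayed near its time 0 level, at 108% and 107% in WT and 103% and 101% in KO. Without its largest member, Atp6v1a, it was 150% and 145% in WT and 145% and 153% in KO. That remainder holds Atp6v0c and Atp6v0c-ps2, which are treated as 1 observation and both rose. In early WT wells the gene was at 798.1 and 792.1 CPM and the pseudogene at 854.4 and 826.4. At time 0 they were at 393.2 and 399.7 and at 398.3 and 401.6. The remainder thus does not give the rise of the other pump genes. Atp6v1a itself had an early log2 change of -0.54 in WT (SE 0.25, edgeR adjusted p 0.998) and -0.81 in KO (SE 0.26, edgeR adjusted p 0.191), and in KO it was called by DESeq2 (-0.75, adjusted p 0.0339). On totals scaled by TMM, the cathepsin values were 158% and 131% in WT and 151% and 146% in KO.

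Ctsb and the Atp6v0c pair carried the early calls. Ctsb was at 10741 and 8865 CPM in early WT wells, and at 12744 and 12320 in KO, above time 0 in both plates of each. The log2 change was 0.77 in WT (SE 0.17, edgeR adjusted p 0.0100) and 0.80 in KO (SE 0.17, edgeR adjusted p 0.00171). Atp6v0c was at 798.1 and 792.1 CPM in WT, a log2 change of 0.93 (SE 0.22, edgeR adjusted p 0.0222), and at 911.4 and 1017 in KO, a change of 0.92 (SE 0.22, edgeR adjusted p 0.0145). Atp6v0c-ps2 had 1.00 in WT and 0.91 in KO (edgeR adjusted p 0.0123 and 0.0179) and is not read as an observation apart from Atp6v0c. Thus 3 of 30 were called in each genotype, all upward and 2 of them the Atp6v0c pair, against 0.199% of all genes in WT and 0.540% in KO.

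Ctsd did not pass the threshold in either genotype. In WT it was at 5001 and 4758 CPM at 0.5 h, against 2174 and 1953 in the time 0 wells with the Poly(I:C) label. Over all time 0 wells of the 2 WT plates Ctsd was at 2611 and 2603 CPM. In KO it was at 6489 and 6748 at 0.5 h, against 3559 and 3335 in the labelled wells and 3893 and 3262 over all. The early log2 change of Ctsd was 0.73 in WT (SE 0.19, edgeR adjusted p 0.0818) and 0.70 in KO (SE 0.19, edgeR adjusted p 0.0569), and DESeq2 called 5 of the 30 upward in each genotype, Ctsd and Ctsa among them. With the plate as a block Ctsd passed in both (edgeR adjusted p 1.39e-04 in WT and 1.06e-04 in KO). Ctsa had a log2 change of 0.59 in WT and 0.66 in KO (edgeR adjusted p 0.686 and 0.261), and Ctss of -0.32 and -0.46 (edgeR adjusted p 0.998 and 0.711). Early tests were added after seeing the data, and each early call was lost with either WT plate left out and with no filter on low counts. The KO calls of Atp6v0c and Atp6v0c-ps2 were also lost with either KO plate left out, and with any 1 of the 4 plates left out their edgeR adjusted p was 0.0659 to 0.308 and 0.0971 to 0.339. The share of Rn45s in the early Poly(I:C) sums was 3.920% and 7.665% in WT and 6.630% and 4.112% in KO, against 7.715% and 10.82% and 8.812% and 7.436% at time 0. The early calls held with Rn45s left out of the counts and without wells over 12% Rn45s. Neither setting made the shares of early and time 0 wells equal, so the part of Rn45s in these changes was not tested.

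**Figure D2:**
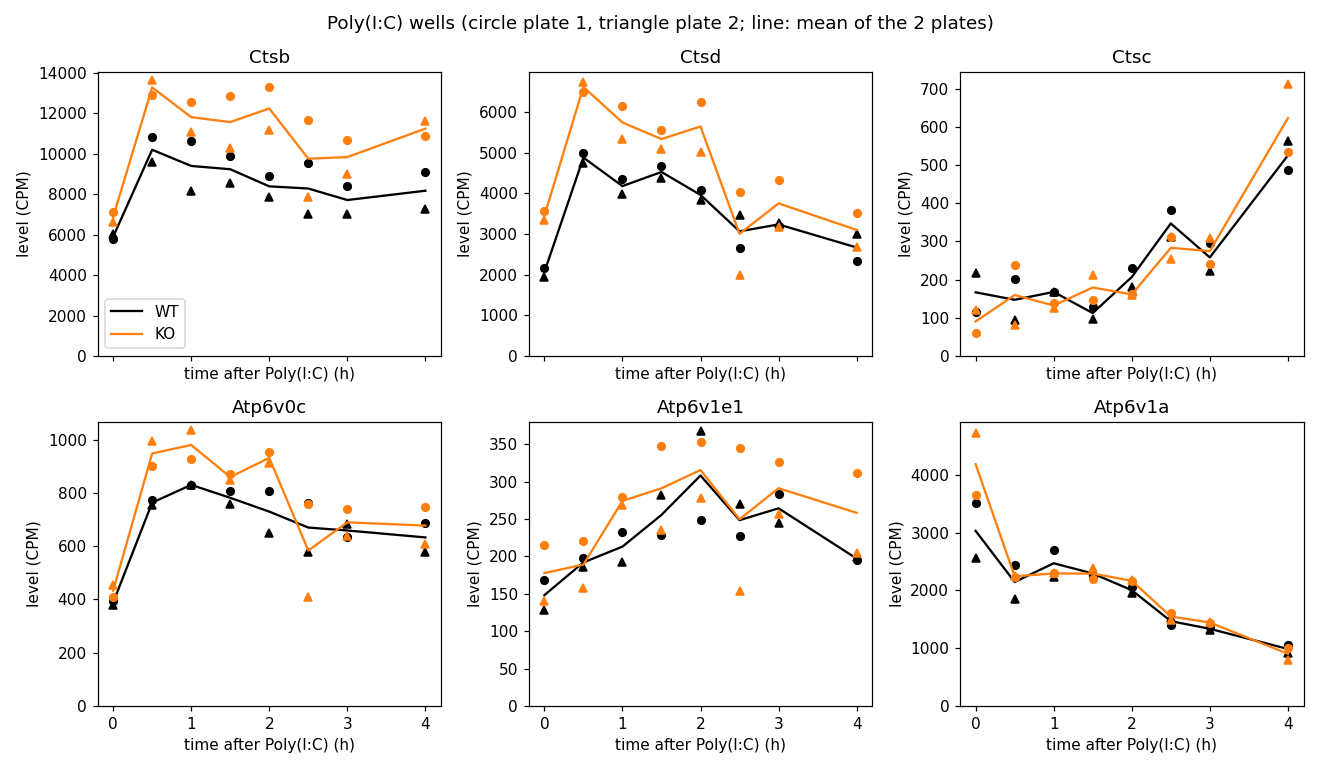
Level in CPM (vertical axes) of 6 genes against time after Poly(I:C) in h, WT in black and KO in orange. Circles and triangles are the wells of plates 1 and 2 and lines their means: from 0.5 h on Ctsb and Atp6v0c stand above their 0 h wells, apart from Atp6v0c in KO plate 2 at 2.5 h (409.1 CPM), while Atp6v1a ends at 794.3 to 1048 CPM.

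In late Poly(I:C) wells 6 of 30 genes were called in WT (5 up, 1 down) and 5 in KO (4 up, 1 down), against 5.24% and 8.11% of all genes. The 5 up in WT include both Atp6v0c and its pseudogene, which are treated as 1 observation. Ctsb was at 8895 and 7101 CPM in WT and at 10986 and 9265 in KO, with a log2 change of 0.75 (SE 0.17, edgeR adjusted p 8.12e-04) and 0.74 (SE 0.17, edgeR adjusted p 8.08e-04). Atp6v0c, at 679.7 and 620.2 CPM in WT, rose by 0.91 on the log2 scale (SE 0.22, edgeR adjusted p 0.00231). In KO it was at a log2 change of 0.62 (SE 0.22, edgeR adjusted p 0.0604), and its pseudogene passed in both (0.93 and 0.66). The KO well of replicate 2 at 2.5 h, 1 of those over 12% Rn45s, was low in Atp6v0c (409.1 CPM against 758.6 in replicate 1), and without the wells over 12% the KO change was 0.70 (edgeR adjusted p 0.0161). Atp6v1e1, the V1 stator subunit, was at 239.1 and 234.6 CPM in WT against 132.0 and 162.9 at time 0. Its log2 change was 0.88 (SE 0.26, edgeR adjusted p 0.0244). In KO Atp6v1e1 was at 325.6 and 219.0 CPM against 167.5 and 146.2, with a log2 change of 0.95 (SE 0.26, edgeR adjusted p 0.00780). All WT calls with Poly(I:C), and in KO those of Atp6v1e1 and the pseudogene, were lost with either WT plate left out. In KO that of Atp6v1e1 was also lost without KO replicate 1, and that of the pseudogene with either KO plate left out. The calls of Atp6v1e1 in both genotypes and of the pseudogene in KO were also lost with no filter on low counts. The calls of Ctsb, Ctsc and Atp6v1a in KO held with each plate left out.

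Other members did not pass with late Poly(I:C). Ctsd was back near its time 0 level in KO at 4 h (3509 and 2693 CPM), with a late log2 change of 0.07 (SE 0.19, edgeR adjusted p 0.937), and had 0.40 in WT (SE 0.19, edgeR adjusted p 0.310; 0.0451 with the plate as a block). Ctsz had 0.29 and 0.09, Ctsl 0.23 and 0.22, and Ctsh, an aminopeptidase, 0.22 and 0.43 in WT and KO. Of the V0 subunits, Atp6v0b had 0.67 and 0.40 and Atp6v0a1 -0.52 and -0.93, the latter with an adjusted p of 0.118 in edgeR and 0.0420 with the plate as a block. Of the V1 subunits, Atp6v1b2, the non-catalytic nucleotide-binding subunit, had -0.60 and -0.76 (edgeR adjusted p 0.298 and 0.0808). The accessory protein Atp6ap1 had -0.01 and -0.51, and Atp6ap2, the prorenin receptor, -0.07 and 0.47. At time 0 Atp6ap1 was at 123.6 and 105.8 CPM in WT and 146.2 and 140.6 in KO, and Atp6ap2 at 147.7 and 154.7 and at 118.7 and 153.3.

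Ctsc, dipeptidyl peptidase I, which activates granule serine proteases, rose late with Poly(I:C) in both genotypes, as Ctsb did, and also with LPS in WT and SeV in KO. Over the Poly(I:C) wells of WT it went from 114.9 and 218.7 CPM at time 0 to 487.7 and 563.0 at 4 h, and in KO from 61.37 and 119.6 to 534.1 and 711.7. The wells at 114.9 and 61.37 were the lowest of the 12 time 0 wells of replicate 1 in WT and in KO. Over all time 0 wells Ctsc was at 170.4 and 176.8 CPM in WT and at 120.6 and 168.3 in KO. The late log2 change was 1.31 in WT (SE 0.31, edgeR adjusted p 0.00154) and 1.52 in KO (SE 0.31, edgeR adjusted p 1.17e-04). With LPS in WT it was at 311.2 and 282.6 CPM late, above both time 0 plates (170.4 and 176.8), a log2 change of 1.10 (SE 0.31, edgeR adjusted p 0.0111). In KO with LPS it was at 166.9 and 153.9, within the range of its time 0 plates (120.6 and 168.3), a change of 0.38 (SE 0.31, edgeR adjusted p 0.665). The difference between genotypes was -0.72 (SE 0.44, 95% interval -1.57 to 0.14, edgeR adjusted p 1.00), so a difference between the genotypes was not shown. With SeV Ctsc was at 294.1 and 245.3 CPM in KO, a log2 change of 1.18 (SE 0.31, edgeR adjusted p 0.00721). In WT with SeV it was at 226.2 and 301.0, a change of 0.90 (SE 0.31, edgeR adjusted p 0.113). The SeV call in KO was lost without KO replicate 1 and without either WT plate, and the LPS call in WT without either WT plate. The Poly(I:C) call in KO held with each plate left out.

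**Figure D3:**
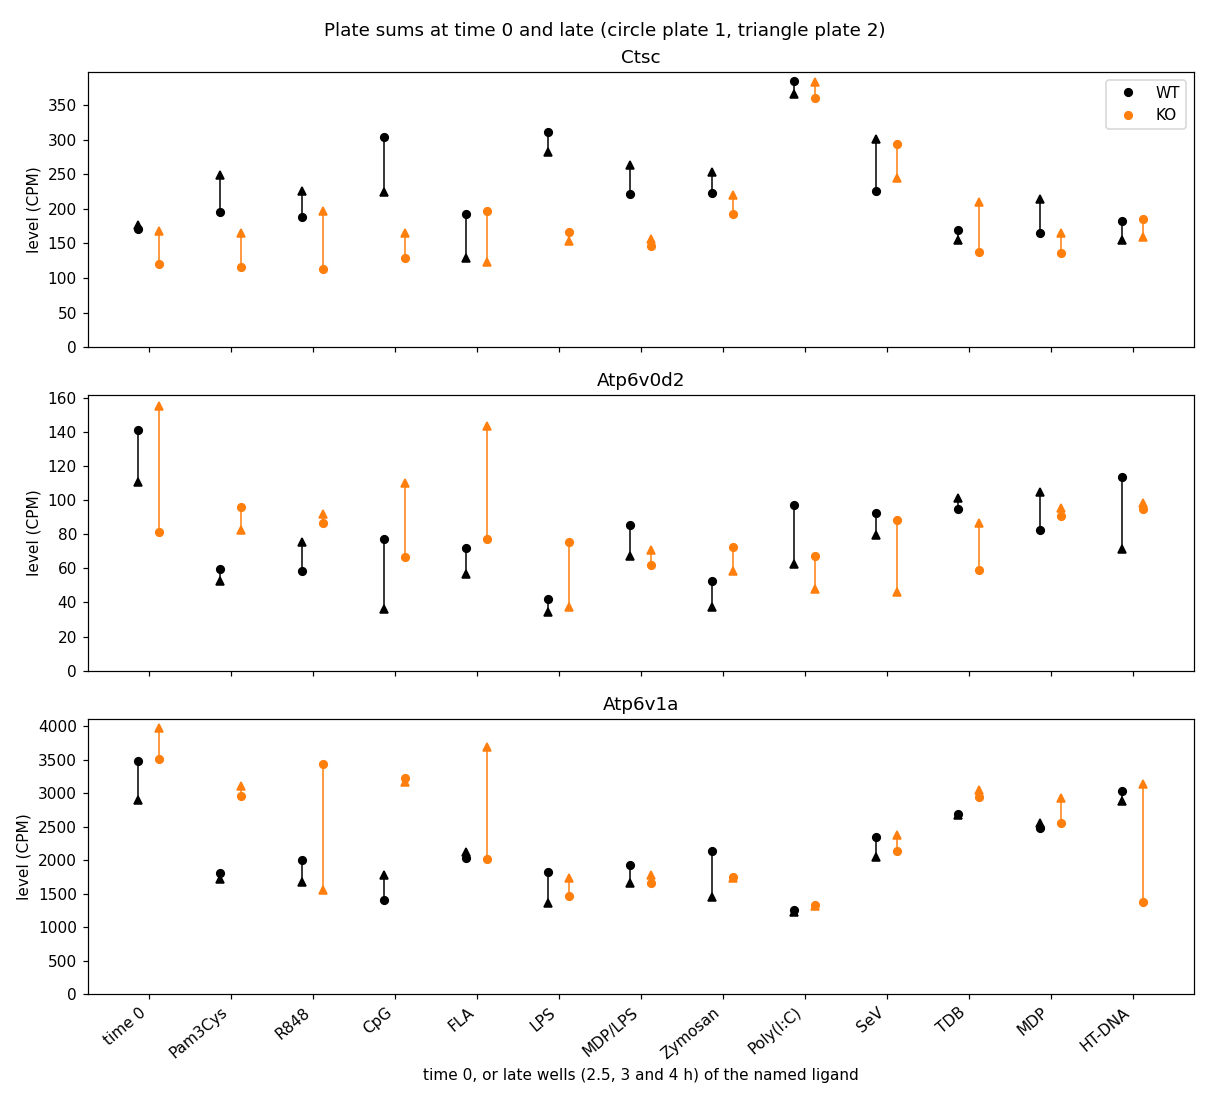
Plate level in CPM (vertical axes) of Ctsc, Atp6v0d2 and Atp6v1a at time 0 and in late wells of each ligand (horizontal axis), WT in black and KO in orange, circle for plate 1 and triangle for plate 2. In both genotypes Ctsc is highest and Atp6v1a lowest with Poly(I:C), and in WT Atp6v0d2 has its lowest plate with LPS, at 34.52 CPM.

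Atp6v0d2 fell late in WT. With LPS it was at 41.83 and 34.52 CPM, below both time 0 plates, a log2 change of -1.39 (SE 0.36, edgeR adjusted p 0.00586). With Zymosan it was at 52.51 and 37.37 CPM, a change of -1.22 (SE 0.36, edgeR adjusted p 0.0235). Over Pam3Cys, R848 and CpG together the change was -0.94 (SE 0.27, edgeR adjusted p 0.0184), and over LPS, MDP/LPS and Zymosan together its 95% interval was -1.52 to -0.47 (edgeR adjusted p 0.00563). With MDP/LPS alone it was -0.38 (SE 0.34, edgeR adjusted p 0.767). In KO no change of Atp6v0d2 passed: it was -0.83 with LPS (SE 0.37, edgeR unadjusted p 0.0254), and its time 0 plates were apart, at 81.39 and 155.6 CPM. The genotype difference with LPS was 0.55 (SE 0.52, 95% interval -0.46 to 1.57, edgeR adjusted p 1.00). The WT calls were lost with either WT plate left out, and the Zymosan call also with late taken as 3 and 4 h only or with no filter.

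Atp6v1a was called lower late with Poly(I:C) in both genotypes, and with LPS, MDP/LPS and Zymosan singly in KO. With Poly(I:C) it was at 1255 and 1227 CPM in WT and at 1331 and 1315 in KO, below all time 0 plates. The log2 change was -1.16 in WT (SE 0.26, edgeR adjusted p 8.03e-04) and -1.35 in KO (SE 0.26, edgeR adjusted p 5.03e-05). With LPS it was at 1471 and 1730 CPM in KO, a change of -0.99 (SE 0.26, edgeR adjusted p 0.00721). With MDP/LPS the change in KO was -0.87 (SE 0.26, edgeR adjusted p 0.0239) and with Zymosan -0.92 (SE 0.26, edgeR adjusted p 0.0162). In WT with LPS, at 1816 and 1356 CPM, it was -0.68 (SE 0.25, edgeR adjusted p 0.111). MDP/LPS gave -0.49 and Zymosan -0.58 in WT (edgeR adjusted p 0.382 and 0.270). Over Pam3Cys, R848 and CpG together the WT change was -0.74 (SE 0.20, edgeR adjusted p 0.0101). LPS, MDP/LPS and Zymosan together gave -0.58 in WT (SE 0.20, edgeR adjusted p 0.0488, and 0.0534 with the plate as a block) and -0.93 in KO (SE 0.20, edgeR adjusted p 3.3e-04). No genotype difference was called with these ligands, singly or together. Pam3Cys, R848 and CpG gave -0.36 in KO (SE 0.20, edgeR adjusted p 1.00), and the difference KO minus WT was 0.39 (SE 0.29, 95% interval -0.19 to 0.96, edgeR adjusted p 1.00). Over the 12 ligands, which share the same time 0 sums, the estimates ran from -1.16 to -0.10 in WT, with 1 called, and from -1.35 to -0.21 in KO, with 4 called. All 12 were negative in each genotype, among them HT-DNA in WT (-0.10) and CpG in KO (-0.21). Without ligand-free wells at these times, ligand and time in the well cannot be told apart. All WT calls were lost with either WT plate left out, and in KO those with MDP/LPS and Zymosan were lost with any 1 plate left out and that with LPS with either KO plate left out.

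In replicate 2 of both genotypes, Atp6v1a at time 0 tended to be lower in wells with more Rn45s, which were often shallower. In KO replicate 2 at time 0, the 3 wells with 16.39% to 20.37% Rn45s had 1034 to 1645 CPM and the 9 others, at 4.655% to 7.816%, had 3320 to 5452 CPM, so the ranges did not overlap. In WT replicate 2 the 5 wells with 12.50% to 24.43% had 1020 to 2553 CPM, and the 7 others had 2435 to 3964. The same 3 wells of KO replicate 2 held 97701, 166832 and 215189 counts, against 185536 to 466484 in the 9 others, and the 5 wells of WT replicate 2 held 84108 to 331832, against 170464 to 376759. In KO replicate 1 the 1 well over 12%, at 13.94%, had 2590 CPM and the 11 others 2946 to 4152. WT replicate 1 had no such well at time 0. Its well with the highest share, 10.20%, had 3634 CPM, and its lowest level, 2887 CPM, came with 6.660%. The shallowest time 0 wells of replicate 1, with 275637 counts in WT and 248403 in KO, had 3827 and 3740 CPM. The parts of Rn45s and of depth in the level were not told apart. In KO the late LPS sums held 12.90% and 12.06% Rn45s, those of MDP/LPS 12.55% and 14.63%, and those of Zymosan 9.991% and 8.848%. Late Poly(I:C) sums held 4.641% and 4.918% in WT and 4.956% and 6.796% in KO. Without wells over 12% Rn45s, a setting added after seeing the data, the Poly(I:C) change was -1.22 in WT and -1.43 in KO (edgeR adjusted p 7.69e-09 and 1.51e-11). In KO the estimate with HT-DNA went from -0.63 to -0.08 and that with R848 from -0.53 to -0.20. That setting called Atp6v1a with 8 of 12 ligands in WT and 5 of 12 in KO. In WT these included LPS (-0.73), MDP/LPS (-0.55), Zymosan (-0.65) and CpG (-0.97, edgeR adjusted p 1.24e-05). The same setting also called Ctss lower in KO with LPS (-0.72, edgeR adjusted p 0.00336) and MDP/LPS (-0.85, edgeR adjusted p 3.41e-04).

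**Figure D4:**
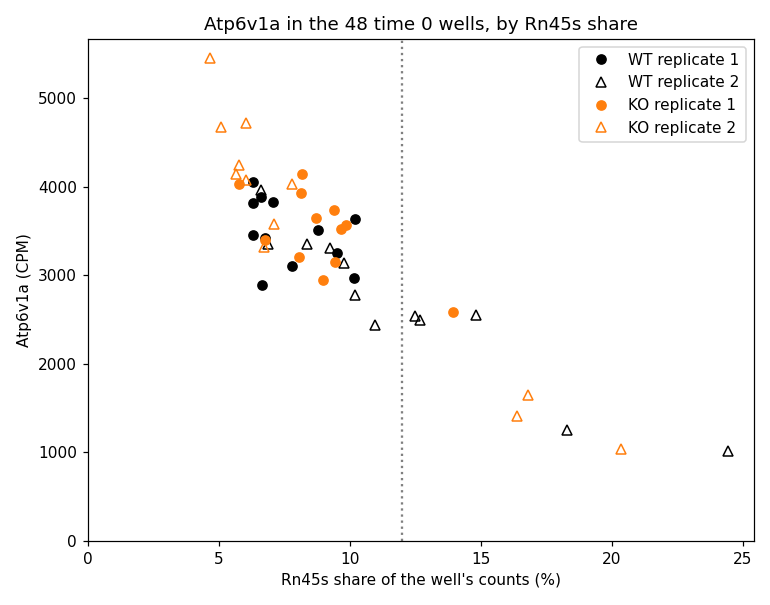
Atp6v1a level in CPM (vertical axis) against the Rn45s share of the well's counts in percent (horizontal axis), for the 48 time 0 wells by plate; the dotted line marks 12%. The 3 high-share wells of KO replicate 2 lie at 1034 to 1645 CPM, under the 9 others at 3320 to 5452.

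Outside Poly(I:C) few late changes were called: 3 in WT and 4 in KO over the other 11 ligands. Over all 12 ligands WT had 9 called changes among 360 tests of the 30 genes (6 up, 3 down, and 31 at an unadjusted p under 0.05). KO also had 9 (5 up, 4 down, and 30 unadjusted), and DESeq2 called 14 and 13. The 6 up in WT include both Atp6v0c and its pseudogene, the pair treated as 1 observation. Of all gene tests over the 12 ligands, 2.80% were called in WT and 2.19% in KO, so the shares of the 30 genes were near the background. In WT the share of all genes called was 2.74% with Pam3Cys, 2.79% with R848, 2.09% with CpG, 0.672% with FLA, 6.32% with LPS, 6.05% with MDP/LPS, 4.78% with Zymosan, 5.24% with Poly(I:C), 2.75% with SeV, 0.170% with TDB, 0.0284% with MDP, 0.0189% with HT-DNA. In KO it was 0.00947% with Pam3Cys, 0.0189% with R848, 0.00947% with CpG, 0.0189% with FLA, 4.41% with LPS, 4.63% with MDP/LPS, 4.45% with Zymosan, 8.11% with Poly(I:C), 3.78% with SeV, 0.521% with TDB, 0.237% with MDP, 0.0663% with HT-DNA. For the set of Pam3Cys, R848 and CpG it was 4.47% in WT and 0.00947% in KO, with 2 and 0 of the 30 called, and for LPS, MDP/LPS and Zymosan 9.08% and 7.09%, with 3 and 1. With LPS in WT the abundant proteases did not pass: Ctsb had a log2 change of -0.27 (SE 0.17, edgeR adjusted p 0.495) and Ctss of -0.39 (SE 0.21, edgeR adjusted p 0.368).

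The summed levels with LPS depended on the scaling. In late LPS wells the cathepsin sum was 69.9% and 69.1% of time 0 in WT and 79.9% and 78.6% in KO, in CPM. On TMM-scaled totals it was 89.7% and 84.6% in WT and 93.5% and 92.6% in KO. The median log2 change of all genes in WT was -0.41 in CPM and -0.08 with TMM, so the CPM values are best read against that shift. The pump sum without Atp6v1a was 69.2% and 68.3% in WT in CPM, and 88.8% and 83.7% with TMM.

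**Figure D5:**
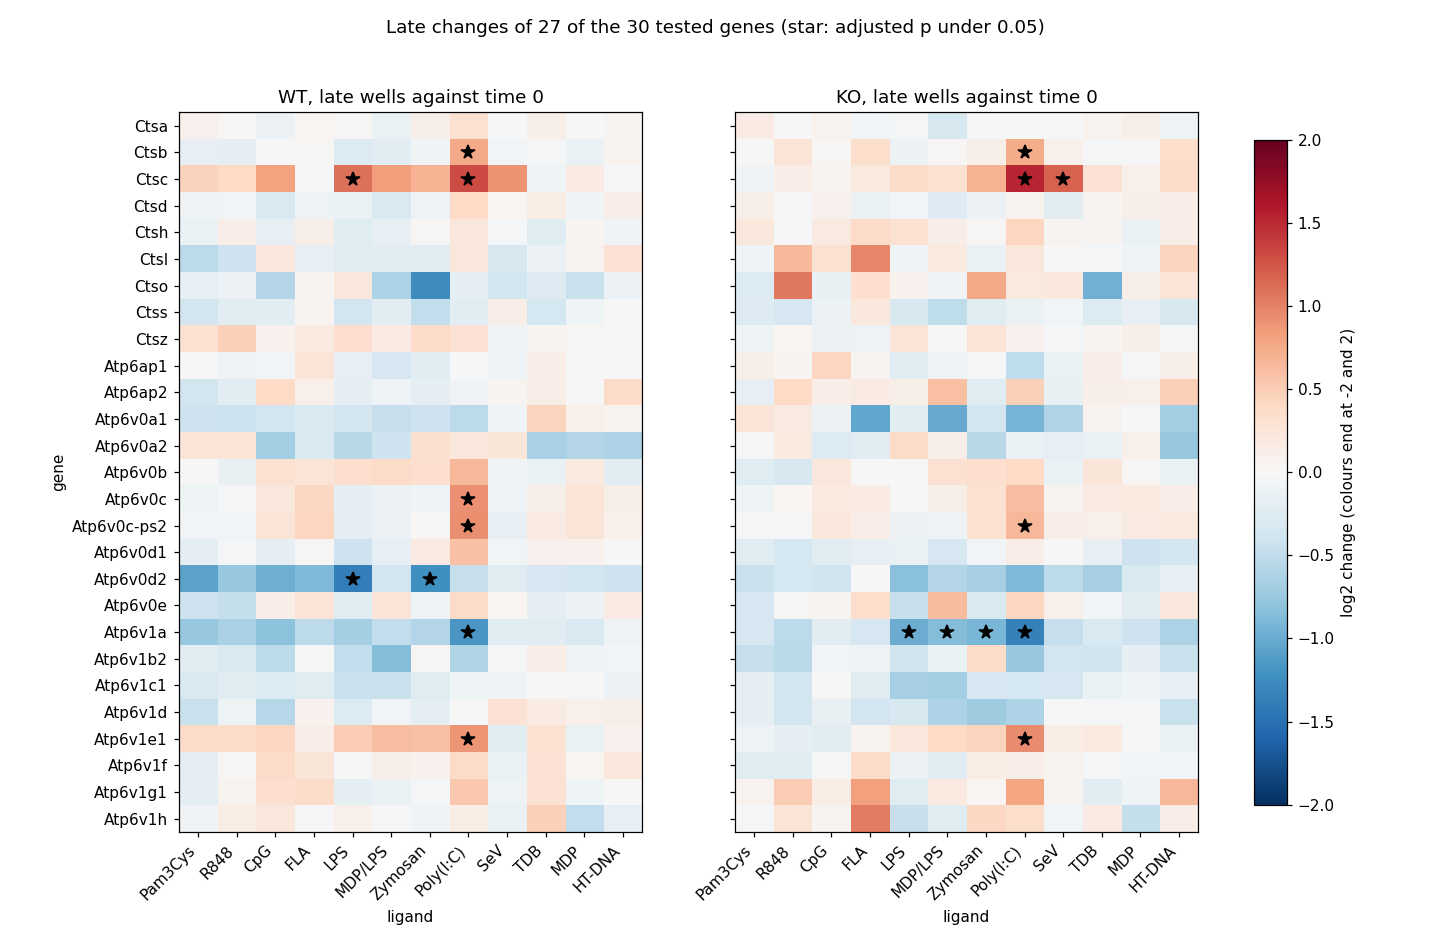
Late log2 change from time 0 for 27 of the 30 tested genes (rows; Ctse, Ctsf and Ctsk, with few counts, are not drawn) and 12 ligands (columns), WT on the left and KO on the right. Red is higher and blue lower than time 0, and a star marks an adjusted p under 0.05, as for Ctsc with LPS and Poly(I:C) in WT.

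No difference between genotypes in the late change was called for any of the 30 genes. Over 12 ligands 0 of 360 tests passed, with 5 at an unadjusted p under 0.05 and 0 called by DESeq2. The share of all genes called was 0.568% with Pam3Cys, 0.549% with R848, 0.587% with CpG, 0.123% with FLA, 0.0189% with LPS, 0.0189% with MDP/LPS, 0.0189% with Zymosan, 0% with Poly(I:C), 0.00947% with SeV, 0% with TDB, 0% with MDP, 0% with HT-DNA. For the 2 sets it was 1.33% (Pam3Cys, R848 and CpG) and 0.0568% (LPS, MDP/LPS and Zymosan). For Ctsb with Poly(I:C) the difference was -0.01 (SE 0.24, 95% interval -0.48 to 0.45).

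Among other lysosomal genes few were called. With Poly(I:C) early, 0.199% of all genes were called in WT and 0.540% in KO. In that comparison 1 of 38 other hydrolase genes was called, Psap, the saposin precursor. It rose from 1054 and 999.5 CPM to 3160 and 2744 in WT (log2 change 1.45, SE 0.19, edgeR adjusted p 4.09e-08) and from 1180 and 1103 to 3482 and 3343 in KO (1.49, SE 0.19, edgeR adjusted p 4.55e-09). With late LPS in WT 3 of 38 hydrolases were called, all lower. Of all 10562 genes 6.32% were called there (484 higher and 184 lower). The list median was -0.36, against -0.13 for all genes. The 3 were Pla2g15, a lysosomal phospholipase (-1.45, SE 0.43, edgeR adjusted p 0.0213), Lipa, acid lipase (-0.67, SE 0.20, edgeR adjusted p 0.0223), and Fuca1, a fucosidase (-1.18, SE 0.36, edgeR adjusted p 0.0270). In the same comparison Slc17a5, the sialic acid exporter, also fell (-1.90, SE 0.45, edgeR adjusted p 0.00186), the 1 called of 24 membrane and transport genes. Slc17a5 was also called lower with R848, MDP/LPS, Zymosan and Poly(I:C) in WT (-1.49, -1.57, -1.63 and -1.43), and with LPS, MDP/LPS, Zymosan and Poly(I:C) in KO (-1.49, -1.87, -1.45 and -2.16). Mitf, a MiT/TFE factor, rose late with several ligands. With Poly(I:C) its log2 change was 0.97 in WT (SE 0.29, edgeR adjusted p 0.0244) and 1.31 in KO (SE 0.29, edgeR adjusted p 6.15e-04), with MDP/LPS 1.42 and 1.53, and with Zymosan 1.11 and 1.14. It was also called with LPS in KO (1.12) and with Pam3Cys and SeV in WT (0.95 and 0.97). With Poly(I:C) in KO Tfec rose too (2.03, SE 0.55, edgeR adjusted p 0.00713), as it did with LPS in KO (1.90), and Tfeb fell (-2.78, SE 0.92, edgeR adjusted p 0.0412). Cst7, a cysteine protease inhibitor, rose late with Poly(I:C) in WT (3.46, SE 1.06, edgeR adjusted p 0.0319) and KO (3.90, SE 1.08, edgeR adjusted p 0.00871), and with Zymosan in KO (3.56). Of 9 tested genes of pump assembly and regulation, Ccdc115 fell with LPS in KO (-2.18, edgeR adjusted p 0.0267) and Ncoa7 rose with SeV in KO (1.60, edgeR adjusted p 0.0173). In these late comparisons 4.41% and 3.78% of all genes were called. None of 6 tested genes of MHC class II processing was called by edgeR at time 0, late, in the genotype differences or early with Poly(I:C). Early wells of the other ligands were not looked at for these lists.

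Ctsb lies on the plus strand of chromosome 14 from 63122462 to 63145923, and its 3′ end overlaps Fdft1 on the other strand. Ctsc is on chromosome 7 from 88278085 to 88310888, Atp6v0d2 on chromosome 4 from 19876841 to 19922605, and Atp6v1a on chromosome 16 from 44085402 to 44139705, with no other gene annotated over their 3′ ends. Atp6v1e1, on chromosome 6 from 120794305 to 120822793, overlaps Slc25a18 there. Ctsa overlaps Pltp, Ctsz overlaps Nelfcd and Atp6v0b overlaps Gm12841 at their 3′ ends, each on the other strand. Ctsd overlaps Gm49369 on its own strand, so the strand would not separate their reads. Whether counting used the strand is not given in the sources used here, so reads of such pairs cannot be told apart. Fdft1 itself had an early Poly(I:C) log2 change of 0.22 in WT and 0.01 in KO (SE 0.28 and 0.27, edgeR adjusted p 0.998 and 1.00).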

How the data were processed

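Expression was measured by 3′ digital gene expression (a modified SCRB-Seq protocol), per the labels' protocols. The values are raw counts in a single deposited table (genes by wells), with 0 columns of other samples. BWA and mm10 are named in the submitters' processing notes; versions, annotation, counting rules and any collapsing of molecular tags are not given in sources used here. Counts were summed per plate and time class (148 sums, 74 groups of 2) and tested in R 4.3.3 with edgeR 4.0.16: filterByExpr with a minimum count of 10 (10562 genes), TMM, trended dispersion (median 0.157), a robust quasi-likelihood fit over all groups, and Benjamini-Hochberg adjustment within each comparison at 0.05. Sums held 198344 to 4901235 counts, and the lower totals limit what can be called. DESeq2 1.42.0, other scalings and filters, and plates left out were alternatives. The test was tried on simulated data.

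Early tests and the Rn45s limit of 12% were added after seeing the data. Members and lists were chosen with earlier results of these data known. Genes given with values are called members, the 6 cathepsins and 6 pump genes with the highest WT time 0 level, markers of other cells, and up to 4 called genes per list; other members named with late Poly(I:C), and Ctsa and Ctss early, were picked after their values were seen. Sums of a plate share a replicate number in the sample titles, read here as a plate. Their deviations from group means, over all tested genes, correlated at a median of 0.014 in WT and 0.020 in KO. A median over all tested genes cannot decide whether single genes share a plate effect. A fit with the plate as a block is given where it changes a call.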

Additional observations from a re-analysis of the deposited data

How the results depend on the processing

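All 30 called gene changes kept their direction under every alternative run. Calls were lost for 25 when WT replicate 1 was left out and for 25 with WT replicate 2, against 8 for KO replicate 1 and 6 for KO replicate 2. Leaving out a plate leaves lone sums that are assumed to vary like the other groups. The replicate block gave 7 higher and 4 lower late calls in WT and 5 and 6 in KO, and 4 higher early Poly(I:C) calls in each genotype; it lost 1 call (Atp6v1a over LPS, MDP/LPS and Zymosan in WT, adjusted p 0.0534) and added Atp6v1b2 (WT, -0.87, adjusted p 0.0421) and Ctss (KO, -0.52, adjusted p 0.0372) with MDP/LPS, beside those of Ctsd and Atp6v0a1 in the report. Without the filter on low counts 10 calls were lost, and with late as 3 and 4 h 1.

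Over 12 ligands, higher late calls in WT (6) were 18 with single wells, which treat wells of a plate as replicates, and 0 to 9 with a plate left out. In KO (5) they were 3 without the filter, 11 with single wells and 2 to 5 with a plate left out. Lower late calls in WT (3) were 6 with RLE scaling and with late as 3 and 4 h, 8 with DESeq2, 22 with single wells, 9 without wells under 150000 counts, 12 without wells over 12% Rn45s and 0 to 10 with a plate left out. In KO (4) they were 21 with single wells, 8 without wells over 12% Rn45s and 2 to 9 with a plate left out. Higher differences between genotypes (0) were 2 with single wells and 0 to 1 with a plate left out, and higher genes at time 0 (0) were 7 with single wells. Early Poly(I:C) calls (3 higher) were 0 without the filter and 5 with DESeq2 in each genotype, 5 (WT) and 6 (KO) with single wells, and 0 to 4 (WT) and 0 to 2 (KO) with a plate left out. In KO 1 lower early call appeared with DESeq2, single wells, wells under 150000 counts left out or wells over 12% Rn45s left out.

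The late LPS cathepsin sum was 87.1% (WT) and 93.0% (KO) of time 0 with TMM, 67.9% and 83.2% with Rn45s left out of totals and 67.4% and 80.3% with late as 3 and 4 h; without Ctsb it was 72.0% in WT. The pump sum was 73.6% and 67.9% with TMM, 68.8% and 74.7% without Atp6v1a and 53.8% and 55.1% with late as 3 and 4 h; with Rn45s left out it was 60.7% in KO. At time 0, leaving out a plate moved the uncalled genotype difference of Atp6v0d2 between -0.66 and 0.26 (0.04 without WT replicate 1), and that of Atp6v1e1 between -0.12 and 0.25 (-0.06 without KO replicate 1). Except where fewer samples or another gene set is the alternative itself, the cause was not tested.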
